A study of Homo sapiens with 12 samples.

Results

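The genes described here drive the passage of a cell from G1 into S phase and copy its DNA. They are 37 named genes, among them the G1 cyclins, the MCM helicase, the replicative polymerases and the enzymes that supply deoxynucleotides. Array probes annotated to 1 of them were taken if detected on both arrays of any group, with a detection p-value (the signal against negative control beads) below 0.01. That rule kept 46 of 58 probes and left 32 of the 37 genes measured, of 8113 genes measured in all. All 32 were detected on all 12 arrays. No probe for CCNE2, E2F1, E2F2, CDC6 or GINS1 was detected on any array. At the edge of the rule, 1 PCNA probe detected on 6 arrays was kept and 1 RFC3 probe detected on 1 array was not.

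The cells were L540, an established line of Hodgkin lymphoma whose surface carries the TNF receptor family member CD30, encoded by TNFRSF8. The series compared what ligation of CD30 at different epitopes does to gene expression. Cells were treated with the CD30 ligand fused to an Fc part (CD30L-Fc), with the anti-CD30 monoclonal antibody T104, with the mouse/human chimeric anti-CD30 antibody PW30, with the antibody T427, with the antibody T408, or were left untreated. Each group was 2 biological duplicates, hybridised as biotin-labelled cRNA to 12 Illumina HumanHT-12 v3 arrays. All cells were from the same line, grown in 10% FBS medium and precultured for 16 h, and each protein was added at 10 µg/ml in the used medium. Treatment lasted 8 h according to the series' design text, which corrects the 24 h of the sample labels, while the growth protocol has 24 h. The design text names T428 where the labels have T408, the name used here. The sources used here do not say whether untreated cells received the carrier, and no control antibody or control Fc protein was analysed here.

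In a dividing cell, D-type cyclins with CDK4 or CDK6, and then cyclin E with CDK2, phosphorylate the retinoblastoma protein and release E2F transcription factors. E2F then switches on the genes that license origins of replication, unwind and copy DNA and make deoxynucleotides. The MCM helicase is loaded onto origins in G1 by ORC, CDC6 and CDT1, and is fired in S phase by CDC7 and CDKs with the help of CDC45 and the GINS complex. CD30 signals through TRAF adaptors to NF-kB and MAP kinases, and in lymphoma lines its ligation has been linked to both growth and growth arrest.

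The promoters of these genes were searched for the E2F motif. RefSeq promoters (build GRCh38.p14, 250 bases before to 50 bases after the start of a gene) were available for 32 of the 37 members. These are not the 32 measured genes. No promoter was available for CCND2, CCNE2, MCM4, MCM5 or RPA2, while E2F1, E2F2, CDC6 and GINS1, which were not measured, had one. The search covered both strands for TTTCCCGC, TTTGGCGC, TTTCGCGC and TTTGCCGC, spellings of the E2F motif, with overlapping matches counted. At least 1 match was found for 20 of the 32 members (62.5%), against 1090 of all 27305 genes in the table (3.99%). Windows of the same length gave 20 of 46 for the members (43.5%), against 3.31% of all 35116. An NF-kB motif, searched on both strands as GGGRNWYYCC in IUPAC letters, was found for 2 of the 32 members (6.25%), against 7.09% of all genes. The promoters of CCNE1, MCM2 and MCM6 are shown because they cover a member that rose, a member that fell and a member with the most matches. They lie at chr19:29811741-29812040 on the plus strand, chr3:127598161-127598460 on the plus strand and chr2:135876394-135876693 on the minus strand. Capitals mark the E2F motif with the matches that overlap it on the other strand.
CCNE1: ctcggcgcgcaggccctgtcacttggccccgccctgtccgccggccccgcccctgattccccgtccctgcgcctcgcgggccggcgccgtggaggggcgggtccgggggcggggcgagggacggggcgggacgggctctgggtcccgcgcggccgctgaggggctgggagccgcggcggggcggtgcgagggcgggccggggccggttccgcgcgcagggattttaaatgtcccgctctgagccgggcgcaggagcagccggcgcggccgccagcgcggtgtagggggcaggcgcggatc
MCM2: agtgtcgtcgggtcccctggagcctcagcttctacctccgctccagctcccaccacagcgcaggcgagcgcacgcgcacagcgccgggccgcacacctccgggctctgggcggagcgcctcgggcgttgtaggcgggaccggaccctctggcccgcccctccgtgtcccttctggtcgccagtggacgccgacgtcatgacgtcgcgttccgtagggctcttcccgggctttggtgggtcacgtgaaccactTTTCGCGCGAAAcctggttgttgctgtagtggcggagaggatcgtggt
MCM6: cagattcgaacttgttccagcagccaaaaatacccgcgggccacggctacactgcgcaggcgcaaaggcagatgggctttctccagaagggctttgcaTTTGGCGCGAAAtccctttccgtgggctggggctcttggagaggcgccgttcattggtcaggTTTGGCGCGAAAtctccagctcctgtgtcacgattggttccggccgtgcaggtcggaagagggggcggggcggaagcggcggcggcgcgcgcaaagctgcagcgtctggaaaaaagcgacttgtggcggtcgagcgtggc
In MCM2 the 2 matches share 1 stretch just after the start, and in MCM6 the 4 matches form 2 stretches. None of the 4 spellings occurs in the CCNE1 window, which says nothing of E2F binding there.

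Each array detected 10910 to 12005 probes, with a median signal of 129.9 to 151.7 before normalization. This median was 144.0 or more on the CD30L-Fc and untreated arrays, and 136.3 or less on the PW30, T427 and T408 arrays. Duplicates correlated at r = 0.9896 to 0.9935 across probes. The TNFRSF8 probe was detected on 11 of 12 arrays, and 4 of 6 Hodgkin line markers, FUT4, IRF4, TRAF1 and STAT6, on all 12. Of the other cell type markers, 2 of 9 T cell genes (CD2 and CD4), 1 of 6 B cell genes (BLK) and 1 of 5 monocyte genes (CSF1R) were detected on all 12 arrays, and 0 of 6 fibroblast and epithelial genes on any. The arrays were background-corrected and quantile-normalised, levels are log2 normalised intensities of the brightest probe of a gene, and a level of one gene cannot be set against that of another. A gene was called when its adjusted p in limma's moderated test, Benjamini-Hochberg adjusted over all 8113 genes within a comparison, was below 0.05. Because these are bulk cultures, fewer cells in S phase and less RNA per cell cannot be told apart.

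Most of the replication genes kept their level within narrow bounds in every treatment. Against untreated cells, all 32 measured members had a 95% interval within 2-fold in each of the 5 treatments. The share of all genes within 2-fold was not counted. The intervals of 27 members after CD30L-Fc, 24 after T104, 23 after PW30, 29 after T427 and 30 after T408 stayed within 1.5-fold. Among all genes, 63.6% after CD30L-Fc, 62.6% after T104, 59.8% after PW30, 77.6% after T427 and 76.6% after T408 did so. The intervals had half-widths of 0.24 to 0.40 log2 units, with a median of 0.29. Residual SDs of the members ran from 0.06 (MCM2) to 0.21 (POLA1), with a median of 0.12, against a median of 0.15 over all genes.

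**Figure D1:**
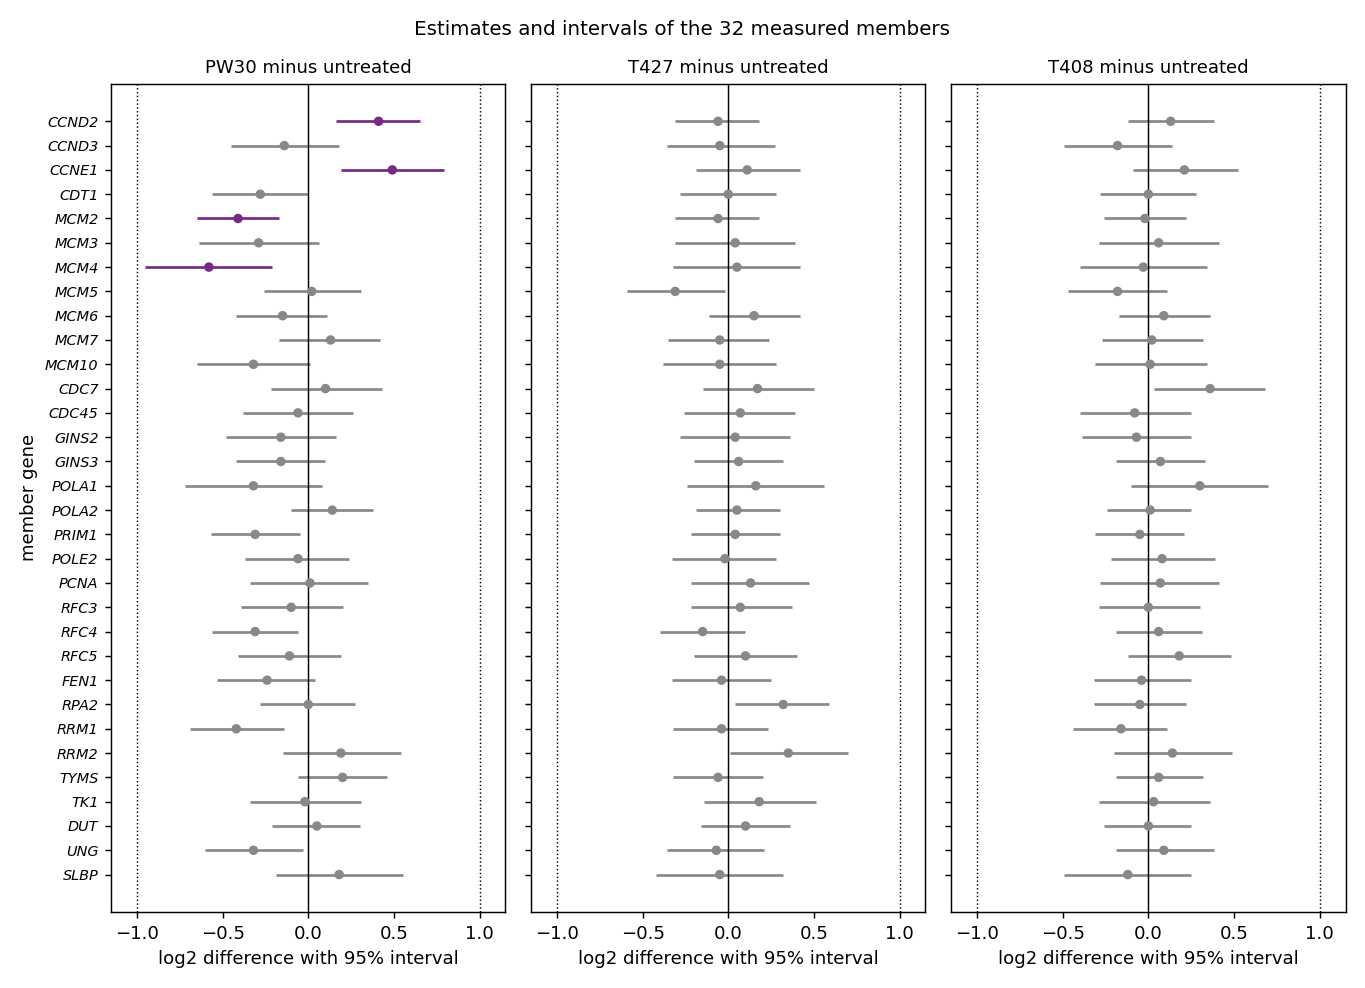
Log2 difference from untreated cells (x axis) with its 95% interval for each of the 32 measured members (y axis), in panels for PW30, T427 and T408. All intervals shown lie within 2-fold. The called genes, all after PW30, are CCND2 and CCNE1 on the high side and MCM2 and MCM4 on the low side.

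On the probe used, the few members called against untreated cells were the cyclins CCND2 and CCNE1, which rose. The helicase subunits MCM2 and MCM4 were called lower, after PW30 alone. CD30L-Fc raised 2 of 32 members and lowered 0, where 8.33% of all genes were called, 5.46% higher and 2.87% lower. T104 raised 1 and lowered 0, where 9.44% of all genes were called, 5.92% higher and 3.53% lower. PW30 raised 2 and lowered 2, where 11.1% of all genes were called, 6.27% higher and 4.79% lower. T427 and T408 changed 0 members each, with 0.333% of all genes called after T427 and 0.271% after T408. At an unadjusted p below 0.05 the members numbered 3 after CD30L-Fc, 8 after T104, 9 after PW30, 3 after T427 and 1 after T408. Of all genes, 21.4% passed that p after CD30L-Fc, 22.8% after T104, 26.2% after PW30, 7.51% after T427 and 7.99% after T408. The share of members called was near or below that of all genes in each comparison. All 5 treatments were set against the same 2 untreated arrays, so the comparisons are not independent of each other.

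**Figure D2:**
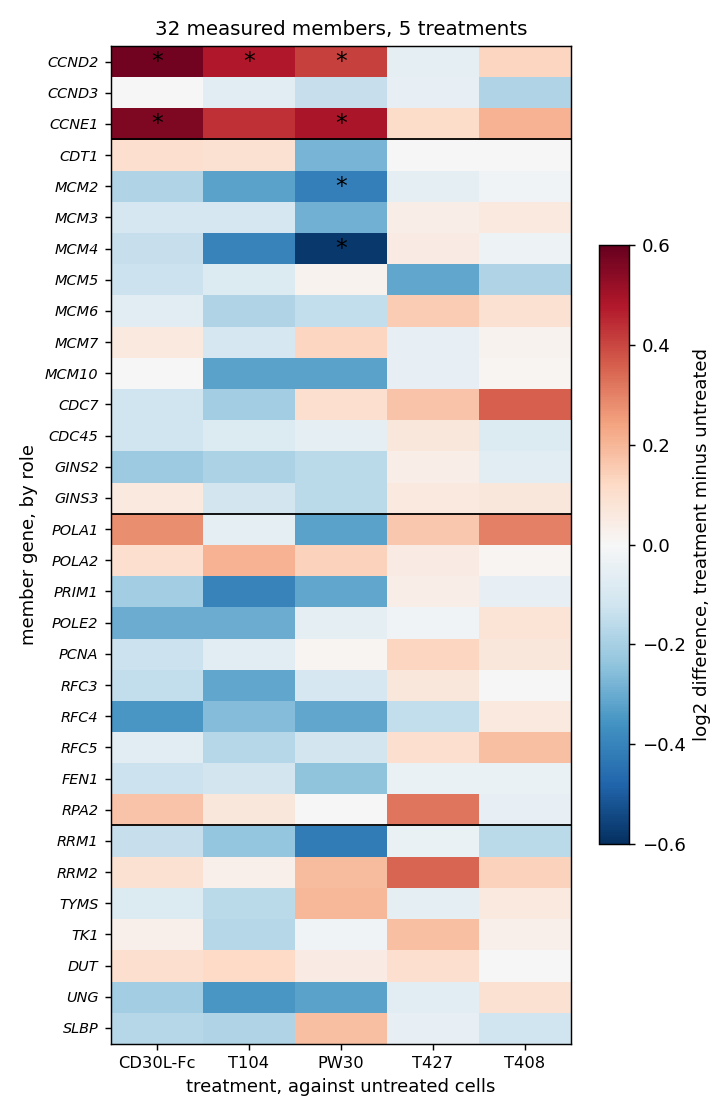
Log2 difference from untreated cells of each of the 32 measured members (rows, ordered by role) in each of the 5 treatments (columns). A star marks a called difference. CCND2 and CCNE1 stand above untreated with CD30L-Fc, T104 and PW30, and MCM2 stands below it there.

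Cyclin D2, encoded by CCND2, pairs with CDK4 and CDK6 in early G1 and is a main D-type cyclin of lymphoid cells. Its level was 15.92 and 15.95 on the CD30L-Fc arrays, 15.82 and 15.87 with T104, 15.79 and 15.75 with PW30, 15.39 and 15.21 with T427, 15.54 and 15.44 with T408, and 15.34 and 15.39 in untreated cells. All arrays of the first 3 treatments were above all arrays of the rest, the T408 arrays were above both untreated arrays, and the T427 arrays overlapped them. CCND2 rose by 0.58 ± 0.11 log2 units (SE) after CD30L-Fc, or 1.49-fold, with an interval of 0.33 to 0.82 and an adjusted p of 0.00639. After T104 it rose by 0.48 ± 0.11 (1.40-fold, adjusted p = 0.0174), and after PW30 by 0.41 ± 0.11 (1.33-fold, adjusted p = 0.0366). The differences after T427, -0.06 (interval -0.31 to 0.18), and T408, 0.13 (interval -0.12 to 0.38), were not called.

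CCND2 was also the 1 member of 32 called by the F test over all 6 groups (F = 11.4, adjusted p = 0.00702), which called 10.2% of all genes. The probe used was bright, at 49.7% to 90.6% of the highest signal on its array. A dimmer CCND2 probe, at 29.9% to 59% of that signal, gave 15.17 and 15.35 with CD30L-Fc, 15.03 and 15.05 with T104, 15.07 and 15.21 with PW30, 14.46 and 14.61 with T427, 14.69 and 14.60 with T408, and 14.34 and 14.22 in untreated cells. On this probe, too, the first 3 treatments stood above the others, and here both the T427 and the T408 arrays exceeded both untreated arrays. In limma's fit over all 11949 kept probes its differences from untreated were 0.98 ± 0.12 after CD30L-Fc (adjusted p = 0.000469), 0.76 after T104 (adjusted p = 0.0023) and 0.86 after PW30 (adjusted p = 0.000984). They were 0.25 after T427 (adjusted p = 0.708) and 0.37 after T408 (adjusted p = 0.442). Of all 46 member probes that fit called 3 higher after CD30L-Fc, 2 higher and 1 lower after T104, 2 higher and 2 lower after PW30 and 0 after T427 or T408. Among all kept probes it called 7.23% after CD30L-Fc, 8.01% after T104, 9.78% after PW30, 0.251% after T427 and 0.259% after T408. After CD30L-Fc the call of the brighter probe was lost without CD30L-Fc replicate 2 (0.56, adjusted p = 0.0553) or with only the arrays of the 2 groups fitted (adjusted p = 0.0509). It was lost without any 1 of the 4 arrays compared after T104 (0.46 to 0.51, adjusted p = 0.0522 to 0.106) and after PW30 (0.38 to 0.43, adjusted p = 0.0798 to 0.139), and with median scaling in both.

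Cyclin E1, encoded by CCNE1, drives CDK2 at the entry into S phase. Its level was 10.03 and 10.17 with CD30L-Fc, 9.91 and 10.03 with T104, 10.04 and 10.02 with PW30, 9.70 and 9.60 with T427, 9.83 and 9.67 with T408, and 9.35 and 9.72 in untreated cells. The CD30L-Fc, T104 and PW30 arrays all exceeded both untreated arrays, and the T427 and T408 arrays overlapped them. CCNE1 rose by 0.56 ± 0.14 log2 units after CD30L-Fc (interval 0.26 to 0.87, 1.48-fold, adjusted p = 0.025) and by 0.49 ± 0.14 after PW30 (interval 0.19 to 0.79, 1.40-fold, adjusted p = 0.0419). The difference after T104, 0.44 ± 0.14, was not called (adjusted p = 0.074). The 2 untreated arrays lie far apart for this gene, and without untreated replicate 1 the differences were 0.38 after CD30L-Fc (adjusted p = 0.172) and 0.30 after PW30 (adjusted p = 0.233). Neither call held without either array of its own treatment (adjusted p of 0.0691 to 0.164), and that after PW30 was also lost with median scaling (0.39, adjusted p = 0.112).

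CCND3 encodes cyclin D3, another D-type cyclin of lymphoid cells. Its level was 12.52 and 12.69 with CD30L-Fc, 12.71 and 12.35 with T104, 12.58 and 12.34 with PW30, 12.62 and 12.48 with T427, 12.42 and 12.43 with T408, and 12.58 and 12.62 in untreated cells. Only the T408 arrays lay clear of the untreated arrays, below both. Its differences from untreated ran from -0.18 (T408) to 0.00 (CD30L-Fc), each ± 0.14, and none was called. For CCNE2, the second cyclin E, and for the transcription factors E2F1 and E2F2, no level is given because no probe was detected.

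**Figure D3:**
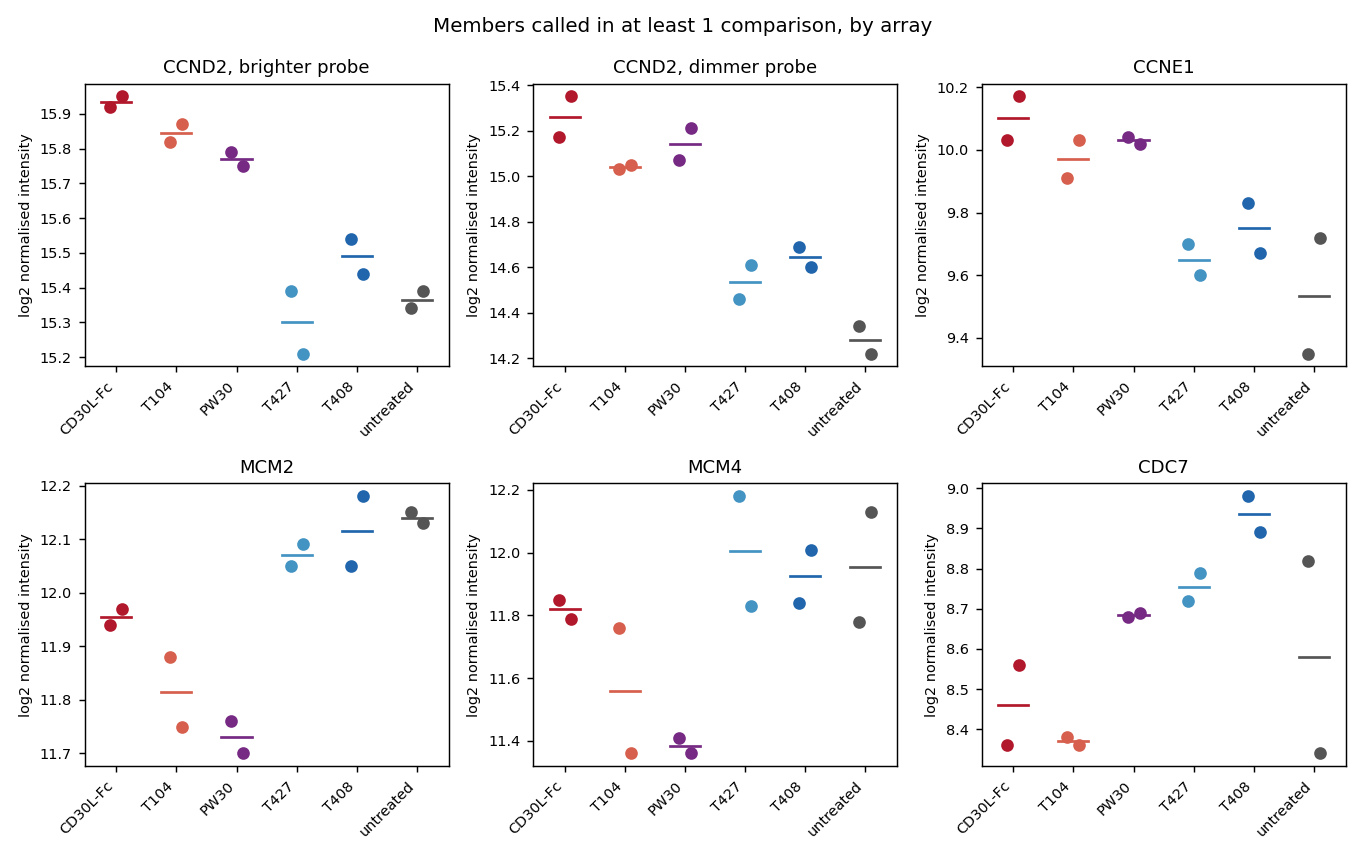
Log2 normalised intensity of CCND2, CCNE1, MCM2, MCM4 and CDC7 on each of the 12 arrays, by group, with points for arrays and a line for the mean of 2. CCND2 has a panel for its brighter probe and a panel for its dimmer probe. CCND2 is higher on the CD30L-Fc, T104 and PW30 arrays than on the others. On the probe shown, the means of MCM2 and MCM4 are lowest with PW30.

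Of the 6 subunits of the MCM helicase, which unwinds DNA at the fork, MCM2 and MCM4 fell after PW30 and the other 4 were not called. The level of MCM2 was 11.94 and 11.97 with CD30L-Fc, 11.88 and 11.75 with T104, 11.76 and 11.70 with PW30, 12.05 and 12.09 with T427, 12.05 and 12.18 with T408, and 12.15 and 12.13 in untreated cells. The CD30L-Fc, T104, PW30 and T427 arrays were all below both untreated arrays, and the T408 arrays overlapped them. MCM2 fell by 0.41 ± 0.11 log2 units after PW30 (interval -0.65 to -0.17, adjusted p = 0.0349). The differences after T104 (-0.32 ± 0.11, adjusted p = 0.105) and CD30L-Fc (-0.18 ± 0.11, adjusted p = 0.391) were not called. The PW30 call was lost without any 1 of its 4 arrays (-0.44 to -0.38, adjusted p = 0.0862 to 0.132).

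The level of MCM4 was 11.85 and 11.79 with CD30L-Fc, 11.76 and 11.36 with T104, 11.41 and 11.36 with PW30, 12.18 and 11.83 with T427, 11.84 and 12.01 with T408, and 11.78 and 12.13 in untreated cells. Both PW30 and both T104 arrays were below the lower untreated array, and the rest overlapped the untreated pair. MCM4 fell by 0.58 ± 0.17 log2 units after PW30 (interval -0.95 to -0.21, adjusted p = 0.0493), and the difference after T104, -0.40 ± 0.17, was not called (adjusted p = 0.186). The call was lost without untreated replicate 2 (-0.40, adjusted p = 0.239) and without either PW30 array (adjusted p of 0.136 and 0.163). In the fit over all kept probes, a dimmer MCM4 probe gave -0.43 after CD30L-Fc (adjusted p = 0.101) and -0.39 after T104 (adjusted p = 0.139). It gave -0.31 after PW30 (adjusted p = 0.207). On this probe the CD30L-Fc arrays, at 10.00 and 9.79, and the T104 and PW30 arrays were all below both untreated arrays, at 10.47 and 10.19.

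None of MCM3, MCM5, MCM6 and MCM7 was called in any treatment. After PW30 the differences from untreated were -0.29 for MCM3, 0.02 for MCM5, -0.15 for MCM6 and 0.13 for MCM7. Dimmer probes gave -0.08 for MCM3 and, with the opposite sign, -0.14 for MCM7, neither of them called. MCM6 was 12.94 and 12.95 with T104, 12.93 and 13.01 with PW30, and 13.02 and 13.23 in untreated cells, so both treatments lay just below untreated. MCM5 had the most negative difference among the members after T427, -0.31 ± 0.13 (adjusted p = 0.635).

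MCM10 helps to activate the loaded helicase, and its probes differed in call. On the brighter probe it was 10.94 and 10.72 with T104, 10.85 and 10.81 with PW30, and 11.37 and 10.93 in untreated cells. The T104 arrays overlapped the untreated pair there and the PW30 arrays lay below it, and the difference of -0.32 ± 0.15 in both treatments was not called. A dimmer probe gave 8.55 and 8.55 with T104, 8.48 and 8.65 with PW30, and 8.97 and 9.09 in untreated cells, with no overlap. In the fit over all probes it fell by 0.48 ± 0.13 after T104 (adjusted p = 0.0454) and by 0.46 ± 0.13 after PW30 (adjusted p = 0.0466).

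The kinase CDC7, which phosphorylates the MCM complex to fire origins, varied between antibodies. Its level was 8.36 and 8.56 with CD30L-Fc, 8.38 and 8.36 with T104, 8.68 and 8.69 with PW30, 8.72 and 8.79 with T427, 8.98 and 8.89 with T408, and 8.82 and 8.34 in untreated cells. The T408 arrays exceeded both untreated arrays, which themselves span most of the range. No difference from untreated was called, the most positive being 0.36 ± 0.15 after T408 (adjusted p = 0.575). CDT1, the licensing factor that loads the helicase, was 9.14 and 9.02 with PW30, against 9.28 and 9.44 in untreated cells, a difference of -0.28 that was not called. CDC45, GINS2 and GINS3, which complete the active helicase, differed by -0.22 to 0.07 over the 5 treatments, with 0 calls.

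None of the 10 polymerase, primase, clamp and clamp loader genes was called in any treatment. PRIM1, the catalytic primase subunit, was 11.51 and 11.51 with CD30L-Fc, 11.27 and 11.39 with T104, 11.44 and 11.39 with PW30, 11.64 and 11.88 with T427, 11.66 and 11.68 with T408, and 11.67 and 11.78 in untreated cells. Its CD30L-Fc, T104 and PW30 arrays were all below both untreated arrays, with differences of -0.21, -0.40 (adjusted p = 0.0589) and -0.31. A dimmer PRIM1 probe gave -0.52, -0.49 and -0.10, none of them called, and there the PW30 arrays overlapped the untreated pair. RFC4, a subunit of the clamp loader, was 12.16 and 12.00 with CD30L-Fc, against 12.50 and 12.36 in untreated cells. That difference of -0.35 ± 0.11 was not called (adjusted p = 0.0834), although the arrays did not overlap. A dimmer RFC4 probe gave -0.19 after CD30L-Fc.

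PCNA, the sliding clamp, had differences of -0.13 after CD30L-Fc to 0.13 after T427, with arrays that overlapped untreated in every treatment. Its probes disagreed most among all members after T427 and T408, by 0.45 and 0.70 log2 units. The other PCNA probes were dim, at mean levels of 6.76 (detected on 6 arrays) and 7.54, against 12.74 for the probe used. POLA2, a subunit of polymerase alpha, had both arrays above untreated after CD30L-Fc, T104, PW30 and T427 and differences of 0.05 to 0.21. RPA2, a subunit of the single-strand binding protein, was 12.75 and 12.63 with T427, against 12.41 and 12.33 in untreated cells. The difference of 0.32 ± 0.13 was not called (adjusted p = 0.6).

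The 7 genes of nucleotide supply, uracil removal and histone mRNA processing had 0 calls in every treatment. RRM1, the large subunit of ribonucleotide reductase, came nearest. Its level was lowest with PW30, at 12.94 on replicate 1, against 13.44 and 13.34 in untreated cells. Both PW30 arrays lay below the arrays of all other groups, with a difference of -0.42 ± 0.13 from untreated (adjusted p = 0.0538). The small subunit RRM2 overlapped untreated after PW30, with 12.01 and 12.06 with PW30 against 12.09 and 11.60 in untreated cells, and its largest difference was 0.35 ± 0.16 after T427 (adjusted p = 0.654). UNG, which removes uracil from DNA, differed by -0.35 after T104 and -0.32 after PW30 with no overlap, and neither was called (adjusted p of 0.134 and 0.144). TYMS, the thymidylate synthase, was 14.12 and 13.98 with PW30, against 13.83 and 13.86 in untreated cells, a difference of 0.20 that was not called.

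Counts of arrays that did not overlap, which need no threshold on p and are from quantile-normalised values, gave the following. Both T104 arrays lay below both untreated arrays for 14 of 32 members (43.8%), against 29.3% of all genes. With PW30 this held for 13 members (40.6%), against 30.0% of all genes, and with CD30L-Fc for 9 (28.1%), against 28.2%. With T427 and with T408 it held for 4 members each (12.5%), against 18.7% of all genes with T427 and 19.5% with T408. Both arrays lay above both untreated arrays for 4 members each with CD30L-Fc, T104 and PW30 and for 3 each with T427 and T408, where the shares of all genes were 21.5% with CD30L-Fc, 21.2% with T104, 21.1% with PW30, 15.4% with T427 and 15.3% with T408. The median difference of the members was -0.09 after CD30L-Fc, -0.13 after T104, -0.10 after PW30, 0.04 after T427 and 0.02 after T408. Over all genes the median was -0.04 after CD30L-Fc, -0.04 after T104, -0.05 after PW30, -0.01 after T427 and -0.02 after T408.

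Averaged by role, the 3 entry regulators stood higher, and the licensing and fork genes lower, after CD30L-Fc, T104 and PW30 than in untreated cells, except that with median scaling the licensing genes on 1 CD30L-Fc array were level with an untreated array. The mean of CCND2, CCND3 and CCNE1 was 12.82 and 12.93 with CD30L-Fc, 12.82 and 12.75 with T104, 12.80 and 12.70 with PW30, 12.57 and 12.43 with T427, 12.59 and 12.51 with T408, and 12.42 and 12.57 in untreated cells. This mean followed CCND2 and CCNE1, while CCND3 differed from untreated by 0.00 after CD30L-Fc, -0.07 after T104 and -0.14 after PW30. The mean of the 12 licensing and firing genes was 11.64 and 11.69 with CD30L-Fc, 11.58 and 11.55 with T104, 11.59 and 11.52 with PW30, 11.69 and 11.79 with T427, 11.76 and 11.75 with T408, and 11.72 and 11.75 in untreated cells. The mean of the 10 polymerase and fork genes was 11.46 and 11.43 with CD30L-Fc, 11.38 and 11.39 with T104, 11.41 and 11.38 with PW30, 11.59 and 11.59 with T427, 11.61 and 11.55 with T408, and 11.54 and 11.51 in untreated cells. In both of these roles the CD30L-Fc, T104 and PW30 arrays were at or below every T427, T408 and untreated array. The 7 nucleotide and histone mRNA genes showed less separation, at 11.76 and 11.82 with CD30L-Fc, 11.74 and 11.68 with T104, 11.83 and 11.81 with PW30, 11.92 and 11.88 with T427, 11.85 and 11.84 with T408, and 11.87 and 11.81 in untreated cells. The mean over all genes was 9.80 to 9.82 on every array. These means are descriptions without a test. With median scaling the order was lost in both roles. The fork genes were then at 11.48 on both CD30L-Fc replicate 2 and T427 replicate 2, and the licensing genes at 11.73 on CD30L-Fc replicate 2, above 11.68 on T427 replicate 2 and level with 11.73 on untreated replicate 1. The mean of all genes under that scaling was 9.86 on CD30L-Fc replicate 2 and 9.71 on T427 replicate 2.

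**Figure D4:**
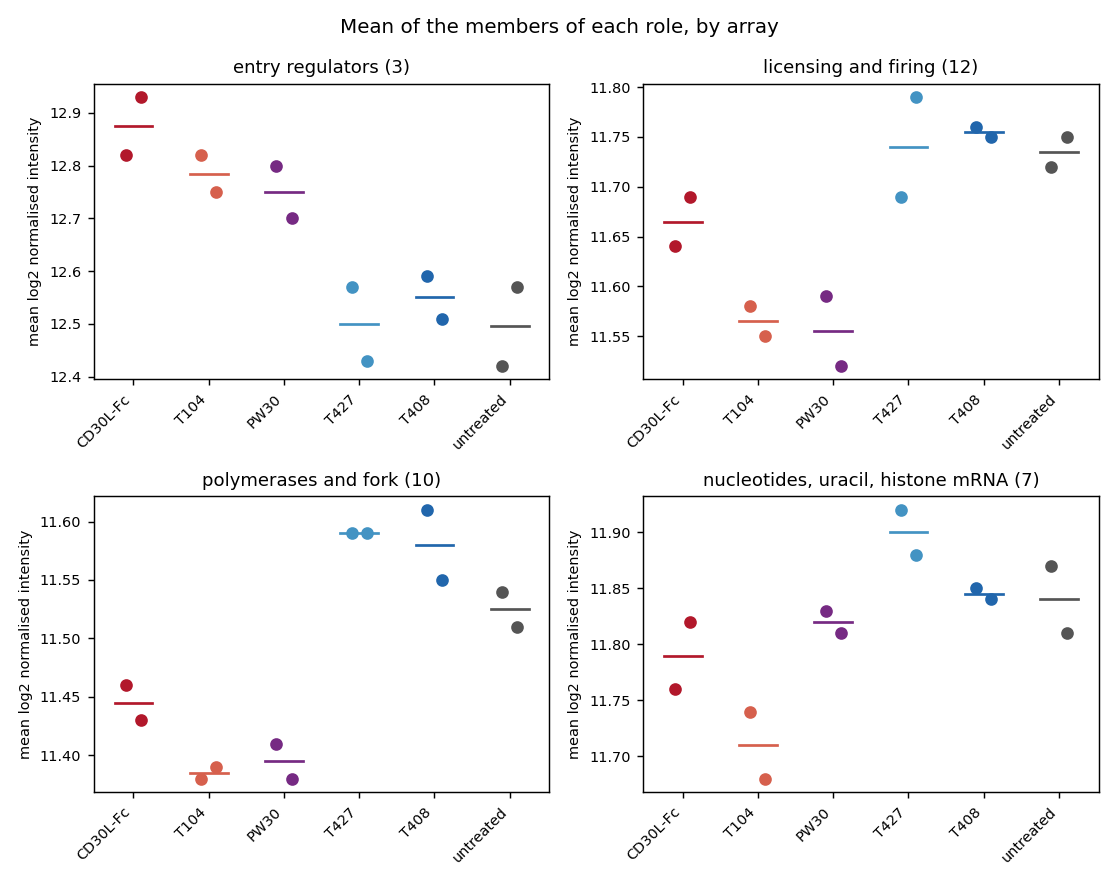
Mean log2 normalised intensity of the measured members of each of 4 roles on each of the 12 arrays, by group, with points for arrays. The entry mean stands higher on the CD30L-Fc, T104 and PW30 arrays than on the T427, T408 and untreated arrays, although CCND3 did not rise. The licensing and fork means stand lower there, apart from 1 array level between the groups for licensing. With median scaling CD30L-Fc replicate 2 no longer lies below T427 replicate 2 for the licensing or the fork genes.

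Set against the ligand, the antibodies differed from CD30L-Fc in CCND2 alone among the 32 members. It fell by 0.64 ± 0.11 log2 units with T427 (adjusted p = 0.00593), where 5.00% of all genes were called, and by 0.45 ± 0.11 with T408 (adjusted p = 0.039), where 5.32% were called. With T104 the difference was -0.09 (interval -0.34 to 0.15) and with PW30 it was -0.17 (interval -0.41 to 0.08). T104 and CD30L-Fc differed in 0 members and in 0% of all genes, with 0 members and 3.44% of all genes at an unadjusted p below 0.05. PW30 and CD30L-Fc differed in 0 members and in 0.160% of all genes, with 5 members and 13.4% of all genes at that p. The T427 call was lost without CD30L-Fc replicate 2 (-0.63, adjusted p = 0.0531) or T427 replicate 2 (-0.55, adjusted p = 0.0685). The T408 call was lost without any 1 of its 4 arrays (adjusted p = 0.109 to 0.198).

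Between antibodies, CCND2 was higher with T104 than with T427, by 0.55 ± 0.11 (adjusted p = 0.0136), where 5.20% of all genes were called. PW30 exceeded T427 as well, by 0.47 ± 0.11 (adjusted p = 0.0252), and MCM4 was lower with PW30 than with T427, with a difference of -0.62 ± 0.17 (adjusted p = 0.0457). In that pair 7.48% of all genes were called. CDC7 was lower with T104 than with T408, with a difference of -0.56 ± 0.15 (adjusted p = 0.0466), where 5.95% were called. PW30 and T408 differed in 0 members and 6.68% of all genes, with 9 members and 20.4% of all genes at an unadjusted p below 0.05. PW30 and T104 differed in 0 members and 0.320% of all genes, with 2 members and 12.0% of all genes at that p. T408 and T427 differed in 0 members and 0% of all genes, with 1 member and 4.76% of all genes at that p. The CCND2 call in T104 against T427 held without T427 replicate 1 and was lost without either T104 array or T427 replicate 2 (0.46 to 0.57, adjusted p = 0.0777 to 0.125). The other 3 of these calls were each lost without any 1 of their 4 arrays (adjusted p = 0.0501 to 0.289). The MCM4 difference was -0.45 without T427 replicate 1 and -0.80 without T427 replicate 2. For PW30 against T408, median scaling called 5 members lower and 0 higher, where 463 of all 8113 genes were called lower and 205 higher. In the fit over all 11949 kept probes, 1 of the 46 member probes was called higher in that pair.

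Non-overlapping arrays on the low side took a larger share of the members than of all genes in 4 of the 6 antibody pairs, those of T104 or PW30 against T427 or T408, as a description without a test. Both T104 arrays were below both T427 arrays for 19 of 32 members (59.4%), against 27.1% of all genes, and below both T408 arrays for 20 (62.5%), against 27.8%. Both PW30 arrays were below both T427 arrays for 18 members (56.2%), against 27.6% of all genes, and below both T408 arrays for 16 of 32, against 27.1%. In the opposite direction both T104 arrays were above both T427 arrays for 4 members, against 22.6% of all genes, and above both T408 arrays for 4, against 23.3%. Both PW30 arrays were above both T427 arrays for 6 members (18.8%), against 23% of all genes, and above both T408 arrays for 8 of 32, against 21.9%. In PW30 against T104 both PW30 arrays were below for 3 members (9.38%), against 22.2% of all genes, and above for 8, against 20.7%. In T408 against T427 both T408 arrays were below for 6 members (18.8%), against 16.4%, and above for 5, against 16.6%. The median differences of the members were -0.19 for T104 against T427, -0.15 for T104 against T408, -0.18 for PW30 against T427 and -0.12 for PW30 against T408. Over all genes the median was -0.03 in each of these 4 comparisons. Counts and medians here are from quantile-normalised values. With median scaling the mean of all members was 11.87 and 11.70 on the T427 arrays, against 11.79 and 11.81 with quantile normalization. The T104 and PW30 arrays were at 11.59 to 11.64 with median scaling. Members also had a lower median residual SD, 0.12 against 0.15 over all genes.

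Other genes of the same pathway, on 5 lists that hold no member, had 54 of 64 genes measured and 13 calls over the 5 treatments. These were 2 genes after CD30L-Fc (3.70%, against 8.33% of all genes), 5 after T104 (9.26%, against 9.44%), 6 after PW30 (11.1%, against 11.1%) and 0 after T427 (0.333% of all genes) or T408 (0.271%), so the shares were at or below those of all genes. Among G1 kinases and the RB and E2F axis, 17 of 18 were measured, with 1 higher and 0 lower after CD30L-Fc, 2 higher and 1 lower after T104, and 1 higher and 2 lower after PW30. CDK6, the kinase partner of D-type cyclins, was 10.22 and 10.46 with CD30L-Fc, 10.52 and 10.38 with T104, 10.19 and 10.13 with PW30, 9.97 and 9.85 with T427, 9.82 and 9.78 with T408, and 9.63 and 9.81 in untreated cells. Its arrays in all 3 of the first treatments exceeded every other array. CDK6 rose by 0.62 ± 0.13 after CD30L-Fc (adjusted p = 0.0085), by 0.74 ± 0.13 after T104 (adjusted p = 0.00256) and by 0.44 ± 0.13 after PW30 (adjusted p = 0.044). The call after T104 held without any 1 array, that after CD30L-Fc was lost without untreated replicate 1 (0.53, adjusted p = 0.0689) or CD30L-Fc replicate 2 (0.50, adjusted p = 0.103), and that after PW30 without any 1 of its 4 arrays (adjusted p = 0.053 to 0.187).

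SKP2, the F-box protein that marks CDK inhibitors for degradation, was 11.36 and 11.37 with PW30, against 11.98 and 11.86 in untreated cells, and fell by 0.55 ± 0.11 (adjusted p = 0.00567). The mean over its probes differed by -0.14 (adjusted p = 0.577). E2F5, a repressive E2F, was 9.41 and 9.43 with PW30, against 10.00 and 10.15 in untreated cells, and fell by 0.65 ± 0.15 (adjusted p = 0.0134), a call that was lost without untreated replicate 2 or either PW30 array (-0.66 to -0.58, adjusted p = 0.0556 to 0.0743). After T104, TFDP2, the partner of E2F proteins, rose by 0.73 ± 0.18 (adjusted p = 0.0271) and CCNA2, the S phase cyclin A2, fell by 0.48 ± 0.14 (adjusted p = 0.0459). TFDP2 was lost without untreated replicate 2 or either T104 array (0.57 to 0.83, adjusted p = 0.0695 to 0.166), and CCNA2 without any 1 of its 4 arrays (adjusted p = 0.0612 to 0.194).

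Origin recognition and licensing genes beyond the members, 11 of 13 measured, had 0 calls in any treatment, and so had nucleotide supply, with 3 of 5 measured. Of 19 measured fork factors of 21, LIG1, the ligase that joins Okazaki fragments, fell by 0.43 ± 0.12 after T104 (adjusted p = 0.045), and POLE3, a polymerase epsilon subunit, fell by 0.43 ± 0.12 after PW30 (adjusted p = 0.0426). LIG1 also differed by -0.24 after CD30L-Fc, -0.17 after PW30, -0.34 after T427 and -0.37 after T408, none of them called. RFC2, another clamp loader subunit, rose by 0.39 ± 0.12 after PW30 (adjusted p = 0.0494), and the mean over its probes had the opposite sign, -0.09. All 3 calls were lost without any 1 of their 4 arrays (adjusted p = 0.082 to 0.239). Of 4 measured CDK inhibitors of 7, CDKN1A, which encodes p21, rose after CD30L-Fc, T104 and PW30, by 1.19 ± 0.17, 1.19 ± 0.17 and 1.27 ± 0.17, and the other 3 were not called.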

How the data were processed

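Expression was measured in 12 cultures of L540 cells in 6 groups of 2. Per the labels the authors used GenomeStudio, while BeadStudio stands in the design text, and no version is given. The deposited tables hold, per the file headers, a linear signal intensity and a detection p-value per probe and array, before normalization and as processed by the authors. Probes were named by the platform annotation supplied, with 28043 symbols updated through the Entrez identifier against RefSeq (GRCh38.p14) and 39 kept as given.

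From the deposited intensity before normalization, a normexp background correction with negative-control moments inferred from detection p-values, an offset of 16 and quantile normalization gave log2 values (limma 3.58.1, R 4.3.3). The 11949 probes detected (p below 0.01) on both arrays of any group were kept, the brightest per gene was used (8113 genes), and 6 group means were fitted over 12 arrays. The 15 comparisons were tested two-sided. With 2 arrays a group an exact permutation test has a smallest two-sided p of 0.333, and precision is limited by the number of arrays. The fit was tested on simulated data. Members called in any comparison or by the F test and the G1/S regulators were given on every array, and of the other pathway lists the called genes, up to 4 a list and comparison. Other members were examples chosen for large differences or, for PCNA, POLA2, RRM2, MCM6, CDT1 and TYMS, after their values were seen. The members and lists were chosen with earlier results of these data known. Replicate numbers were checked for pairing, and deviations of same-numbered arrays correlated at -0.08 to 0.11 between groups.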

Additional observations from a re-analysis of the deposited data

How the results depend on the processing

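Of 972 values of single genes under an alternative, 825 kept their side of the threshold (27 of them, all not called, with the opposite sign), 129 were no longer called, 17 became called and 1 called value reversed, RFC2 after PW30 (-0.09 with the mean of its probes). The count of members called after T104 (1) was 3 with no background correction, 3 with the authors' values, 4 with the mean of probes, 0 without a filter on dim probes, 0 with only the arrays of the 2 groups and 2 with every probe on its own, an alternative chosen after seeing the data. The count after CD30L-Fc (2) was 1 with no filter and 0 with 2 groups, and that after PW30 (4) was 0 with no filter and 0 with 2 groups. With median scaling PW30 raised 0 members and lowered 3, T104 raised 0 and lowered 1, and the median of all genes after PW30 moved to -0.13, so the split of directions depended on the scaling. Among all genes this scaling called 362 higher and 569 lower after PW30, and 377 higher and 298 lower after T104. Calls against CD30L-Fc (2) were 1 with median scaling and 1 with 2 groups. Calls over the antibody pairs (4) were 10 with no background correction, 8 with median scaling, 10 with the authors' values, 0 with no filter and 8 with the mean of probes. The F test (1) gave 6, 2, 6 and 3 in the settings of no background correction, median scaling, the authors' values and the mean of probes, and 2 with probes detected on all 12 arrays. The 13 calls of pathway genes were 7 with no filter and 6 with 2 groups. Replicate numbers do not pair the samples, and with a replicate block the calls numbered 0 after PW30, 1 against CD30L-Fc and 2 over antibody pairs. Leaving out 1 array at a time gave 0 to 2 calls after CD30L-Fc, 0 to 1 after T104, 0 to 2 after PW30, 0 after T427 and T408, 0 to 2 against CD30L-Fc, 0 to 2 over the pairs, 1 to 3 by the F test and 7 to 13 among pathway genes. The lone array of a group is then assumed to vary like the others. The causes of these changes were not tested. The slide as a block was not run, since no header or label names the slides.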
